A study of Mus musculus with 18 samples.

Results

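Complex I, the NADH:ubiquinone oxidoreductase of the mitochondrial inner membrane, was followed through every gene of the deposited tables whose symbol begins with Nduf. This rule, which uses names and no measured value, took 46 of 24539 genes. Of these, 36 encode subunits of complex I and 8, named Ndufaf, encode assembly factors. The other 2 are Ndufa4, a subunit of cytochrome c oxidase despite its name, and its paralogue Ndufa4l2, and both were kept apart from the subunits. All 46 passed the filter on low counts in each of the fits. The mitochondrially encoded subunits and Ndufb1 were not analysed here.

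The livers came from male wild-type C57BL/6 mice that received 1 of 3 diets for 8 weeks from the age of 8 weeks and were 16 weeks old at sampling. Controls ate normal chow, others ate a high-fat diet (HFD), and the other mice ate that diet plus lycopene, a carotenoid of tomatoes (HFD+LYC); each group had 3 livers. From each liver, poly(A) RNA was sequenced once from total RNA (mRNA libraries) and once from RNA pelleted with ribosome-nascent chain complexes through a sucrose cushion in the presence of cycloheximide (RNC libraries), which gave 18 libraries. RNC-RNA stands for transcripts carrying ribosomes, so the ratio of RNC to mRNA describes how much of a transcript was ribosome-bound relative to other transcripts. The series names 3 biological replicates per condition, and p-values therefore measure the spread between these livers. All 3 groups shared strain, sex, age and genotype. In bulk liver RNA, fewer cells of a type and less RNA per cell cannot be told apart.

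Complex I takes electrons from NADH and passes them through a flavin and a chain of iron-sulphur clusters to ubiquinone, while its membrane arm pumps protons. The matrix arm holds the NADH-oxidising module and the ubiquinone-reducing module, whose catalytic core subunits are nuclear-encoded, whereas the core of the membrane arm is encoded by mitochondrial DNA. Around the cores sit accessory subunits, which stabilise the enzyme or hold it in supercomplexes, and assembly factors that act on part-built modules and leave the finished enzyme. In hepatocytes the enzyme reoxidises the NADH made by fatty acid oxidation and the citric acid cycle.

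The libraries held 4533729 to 12742436 listed reads, and the 46 genes together took 0.199% to 0.624% of the reads. CPM are reads scaled to library size, with a further TMM factor in all levels below. In the RNC fit it was 0.428 for HFD+LYC RNC 1 and 0.836 to 1.34 for the other libraries. A lower factor raises the CPM of a library. Before this factor, 3 reads equalled 0.235 to 0.662 CPM. These limits reflect counting error alone, because the reads carried no molecular identifiers. The 3 HFD+LYC RNC libraries stood apart from the other 15: 8940 to 10037 genes had a read there, against 13324 to 15332 elsewhere, and 44 to 45 of the 46 Nduf genes had one, against all 46 elsewhere. In these libraries 85 of 86 tested cytosolic ribosomal protein genes were lower than in HFD, with a median log2 change of −4.20, and the summed level of 8 hepatocyte markers was 109588 to 429433 CPM against 66230 to 98615 CPM in HFD. All 8 hepatocyte markers had reads in every group. Summed markers of stellate cells were 57.5 to 82.4 CPM in HFD+LYC RNC against 196 to 244 CPM in HFD RNC, those of Kupffer cells 147 to 203 against 275 to 487 CPM, and those of sinusoidal endothelium 50.4 to 80.4 against 104 to 154 CPM. Summed adipocyte markers were 79.8 to 218 against 6.64 to 18.6 CPM, with 4 of 5 at 0 in the HFD+LYC RNC libraries. What part any of these differences had in the values below was not tested.

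Subunit mRNAs stood above assembly factor mRNAs in control liver. Per kilobase of transcript, which allows genes to be compared, mean levels of the 36 subunits ran from 25.8 ± 0.473 (SD, n = 3) CPM per kb for Ndufs1 to 434 ± 226 for Ndufa6, a 16.8-fold range with a median of 131. The 8 assembly factors ran from 1.68 ± 0.669 for Ndufaf5 to 23.8 ± 13.8 for Ndufaf8, with a median of 11.2, so that by mean level all assembly factors stood below all subunits. Ndufa4 had the highest mean of the 46, 681 ± 429 CPM per kb, and Ndufa4l2 stood at 5.15 ± 0.256. The wide SDs reflect 3 unlike mRNA libraries, the second of which was low for nearly all of these genes. In RNC libraries of control liver the subunit median was 134 and the assembly factor median 10 CPM per kb.

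**Figure D1:**
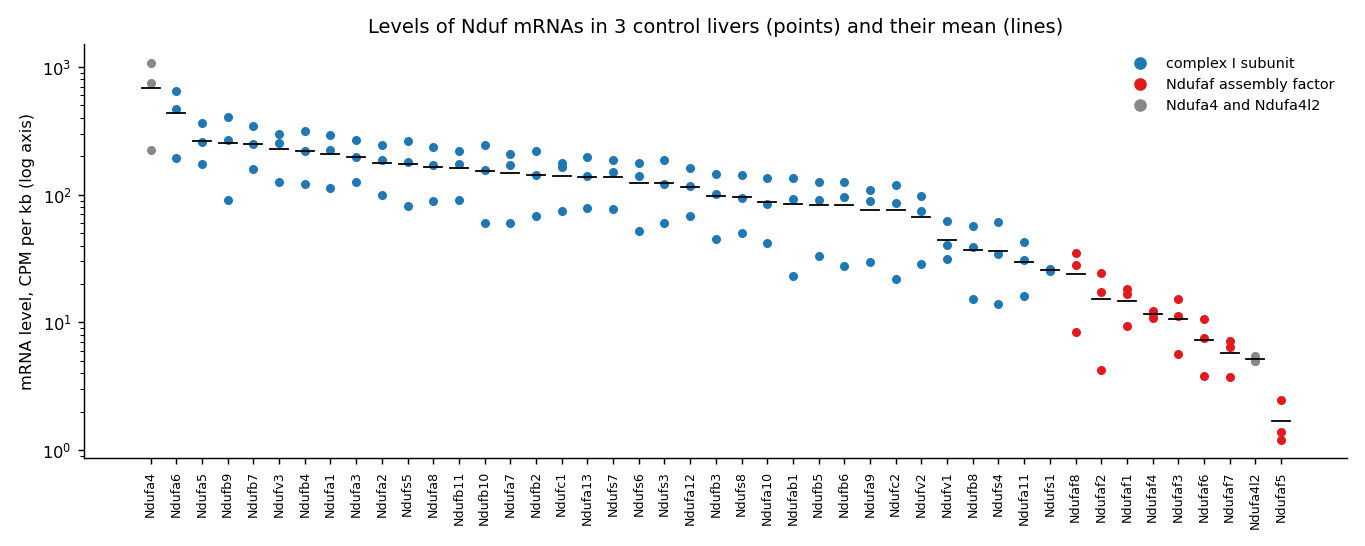
Levels of Nduf mRNAs in control liver, in CPM per kilobase of transcript on a log axis; points are the 3 livers and short lines their means, coloured by class. The subunits lie between means of 25.8 and 434, the Ndufaf genes between 1.68 and 23.8, and 1 library is low for most genes.

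The core subunits, which carry the redox centres, were not the most abundant. Ndufs1, the largest core subunit and the carrier of several iron-sulphur clusters, was at 74.4, 77.1 and 75.3 CPM in the 3 control mRNA libraries. Ndufv1, which binds NADH and the flavin, was at 99.2, 50.3 and 65.3 CPM, and Ndufv2, which holds a further cluster, at 159, 46.5 and 123 CPM. The second control liver was low for both of these and not for Ndufs1. In the ubiquinone module, the structural core subunit Ndufs3 stood at 175, 56.5 and 115 CPM. Ndufs7, which binds the last cluster of the chain, stood at 143, 58.1 and 113 CPM and Ndufs8, another iron-sulphur subunit, at 147, 51.5 and 96.4 CPM. The second library was the lowest of the 3 for each of these 3 genes.

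Assembly factor transcripts were scarce in every control liver. Ndufaf1, a member of the intermediate assembly complex that builds the membrane arm, was at 26.4, 13.6 and 24.2 CPM in control mRNA. Ndufaf2, a paralogue of the subunit Ndufa12 that holds its place during assembly, was at 16.5, 2.89 and 11.8 CPM. Ndufaf3 and Ndufaf4, which act together on the early ubiquinone module, were at 16.3, 6.06 and 11.9 CPM and 42.5, 44.6 and 39.3 CPM. Of these 4, Ndufaf4 alone was not lowest in the second library. Ndufaf5, which hydroxylates an arginine of Ndufs7, was at 6.69, 3.3 and 3.8 CPM, and its partner Ndufaf8 at 17.3, 4.13 and 13.8 CPM. Ndufaf6, another early factor, was at 11.4, 4.13 and 8.24 CPM, and Ndufaf7, a protein arginine methyltransferase, at 16.5, 8.67 and 14.7 CPM. These last 4 were again lowest in the second library.

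The mRNA libraries of 1 diet differed in the whole set of subunits. With 1 mRNA library per liver, a difference of the liver and one of its library cannot be told apart. Relative to each gene's mean over the 9 mRNA libraries, the median log2 level of the 36 subunits was 0.68, −0.85 and 0.27 in the 3 control livers. It was −0.10, 0.10 and 0.40 under HFD and −0.06, −1.17 and 0.77 under HFD+LYC. In the second control liver 36 of 36 subunits were below their own mean, and in the second HFD+LYC liver 33 of 36 were, while in the first control and the third HFD+LYC liver only 1 was. Assembly factors followed with medians of 0.62, −0.57 and 0.28, then −0.22, 0.25 and 0.59, then −0.29, −0.53 and 0.18. The median over all tested genes stayed within 0.028 of 0 in these mRNA libraries. In RNC libraries the subunit medians lay between −0.10 and 0.14, with the second control liver at 0.06. The second HFD+LYC liver, the lowest in mRNA, was also the lowest of the 9 in RNC, at −0.10 with 20 of 36 subunits below their mean. The RNC median over all tested genes was 0.18 to 0.21 in control and HFD libraries and −0.44, −0.21 and −0.16 in HFD+LYC. Subunit medians in RNC stood below that median in control and HFD and above it in HFD+LYC, the second liver included. Over 6023 genes, deviations in the first and second control mRNA library had Spearman correlations of −0.43 and 0.49 with transcript length; the part of transcript length in the subunit deviations was not tested.

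**Figure D2:**
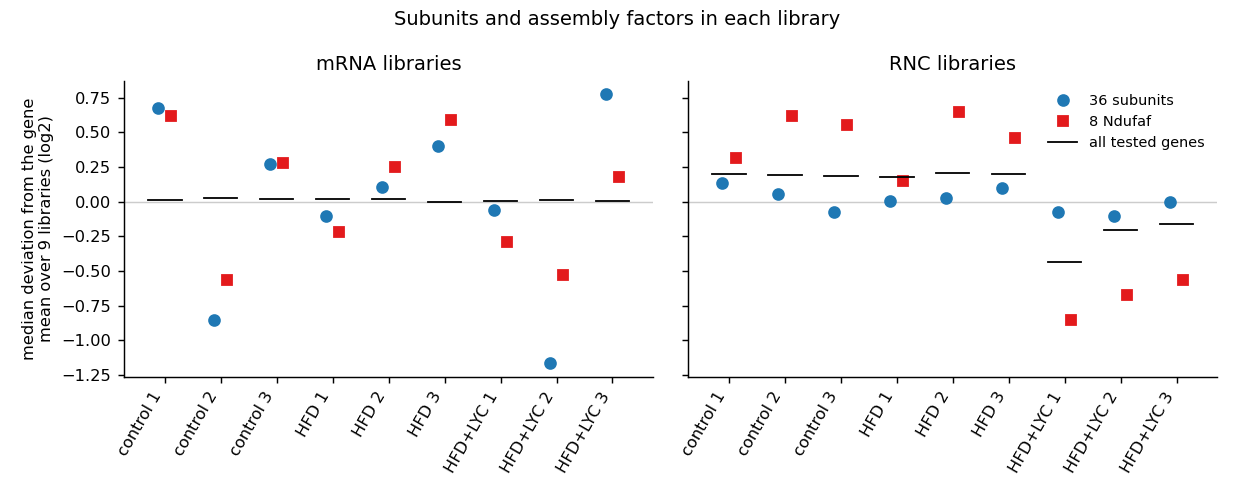
Median log2 deviation from each gene's mean over the 9 libraries of its kind, by library, for mRNA and RNC; circles are the 36 subunits, squares the 8 Ndufaf genes and short lines all tested genes. In mRNA the second control and second HFD+LYC livers lie at −0.85 and −1.17 for subunits, while RNC subunit medians stay between −0.10 and 0.14.

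A minority of the promoter windows held a motif of NRF1. Promoter windows of 300 bases, 250 before and 50 after the start, were found in RefSeq (GRCm38.p6) for 40 of the 46 genes and searched on both strands. That motif of NRF1, nuclear respiratory factor 1, which reads GCGCA, any base and GCGC, was in 9 of 40 Nduf genes (22.5%), namely 7 of 32 subunits and 2 of 7 assembly factors, against 5.19% of 27025 genes. The YY1 motif AAGATGGCG was in 6 of 40 (15.0%) against 1.64%, and the ETS motif CCGGAAG in 6 of 40 (15.0%) against 9.93%. None of the YY1 matches lay wholly in the 250 bases before the start. Neither did the NRF1 matches of Ndufa6 and Ndufaf5 or the ETS match of Ndufs8. The letters CACGTG were in 5% against 8.09%, CCAAT in 35% against 41.1% and TATAAA in 10% against 15.7%. The search allowed motifs to overlap, and a match describes the letters only. A pair of upstream stretches is shown because both hold the NRF1 motif, in capitals, while the mRNAs differed across the control livers. They are the 250 bases before the start of Ndufs5, an accessory subunit of the intermembrane space, on the minus strand at chr4:123718187-123718436, and of Ndufaf4 on the plus strand at chr4:24897833-24898082.
Ndufs5: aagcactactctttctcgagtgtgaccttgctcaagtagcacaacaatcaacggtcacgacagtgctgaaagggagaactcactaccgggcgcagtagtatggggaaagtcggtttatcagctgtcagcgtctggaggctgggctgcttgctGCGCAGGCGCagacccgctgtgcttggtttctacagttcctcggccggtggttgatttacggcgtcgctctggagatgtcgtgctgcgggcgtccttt
Ndufaf4: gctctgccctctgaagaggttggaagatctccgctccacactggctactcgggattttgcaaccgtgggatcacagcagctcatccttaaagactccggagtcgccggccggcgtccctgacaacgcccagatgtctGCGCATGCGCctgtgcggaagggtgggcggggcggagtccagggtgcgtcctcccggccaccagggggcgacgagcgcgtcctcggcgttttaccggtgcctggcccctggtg
The motif lay 98 bases before the start of Ndufs5 and 113 before that of Ndufaf4. Control mRNA levels were 134, 41.9 and 91.6 CPM for Ndufs5 and 42.5, 44.6 and 39.3 CPM for Ndufaf4. The second control liver was the lowest of the 3 for Ndufs5 and the highest for Ndufaf4. A near copy of Ndufs5, BC002163, is listed in the files and is 99.4% identical over its aligned stretch, so reads of Ndufs5 could have been divided between them.

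The first question the diets pose is what the high-fat diet did to these genes. No Nduf transcript was called in HFD against control, in mRNA or in RNC. In mRNA 0 of 46 had an adjusted p under 0.05 by edgeR's quasi-likelihood test, the rule for a call (background 0.0158% of 12664 genes), 0 had an unadjusted p under 0.05 (background 2.83%), and DESeq2 called 0. Of the subunits 18 were above 0 and 18 below (background 49% above), with a median log2 change of −0.0017 and a range from −0.22 for Ndufv3 to 0.26 for Ndufs1. That median was −0.34 without control mRNA 2 and 0.35 without control mRNA 1. The SD between subunits was 0.11 while the median standard error of a single gene was 0.51, so the mRNA libraries spread more than the subunits' changes did. Assembly factors had a median of 0.069, with 6 of 8 above 0.

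Ndufs1 was the only subunit whose HFD and control livers did not overlap in mRNA, against 7.22% of all tested genes. It measured 82.8, 83.8 and 104 CPM in HFD against 74.4, 77.1 and 75.3 in control, a log2 change of 0.26 ± 0.26 (fitted value ± standard error) with an adjusted p of 1. Of the 46, the smallest unadjusted p, 0.158 by edgeR's test, belonged to Ndufa4l2, whose gene is known to respond to low oxygen. It stood at 5.06, 2.27 and 2.47 CPM in HFD and 5.25, 4.82 and 4.82 in control, with a log2 change of −0.60 ± 0.40 and overlapping groups. Among assembly factors Ndufaf6 stood at 6.61, 12.1 and 14.4 CPM in HFD, a log2 change of 0.47 ± 0.44, Ndufaf4 at 51, 49.4 and 44.2 CPM, 0.19 ± 0.26, and Ndufaf7 at 8.36, 11.5 and 12.1 CPM, −0.32 ± 0.32. These 3 overlapped with their control values. Other core subunits in HFD mRNA stood at 49.3, 75.3 and 121 CPM for Ndufv1 and 79.9, 95.2 and 141 for Ndufv2. Ndufs3 measured 82.8, 113 and 138, Ndufs7 101, 85.7 and 93.8 and Ndufs8 79.8, 91.5 and 101 CPM. Each of these 5 overlapped with its control range. The remaining assembly factors in HFD mRNA were Ndufaf1 at 16, 22.9 and 29.6, Ndufaf2 at 7.02, 10.7 and 14.2 and Ndufaf3 at 8.57, 12.5 and 14.3 CPM. Ndufaf5 stood at 2.79, 3.41 and 6.41 and Ndufaf8 at 9.91, 13.2 and 17.5 CPM, and all 5 overlapped with control.

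No Nduf gene passed the test between these diets in ribosome-bound RNA either. In RNC 0 of 46 were called (background 0.00858% of 11660 genes), 0 had an unadjusted p under 0.05 (background 1.84%) and DESeq2 called 0. The subunit median was 0.021, with 20 above 0 and 16 below (background 51.2% above), an SD of 0.17 and a median standard error of 0.25. It ran from −0.33 for Ndufs7 to 0.45 for Ndufb2, a small subunit of the distal membrane arm. Assembly factors had a median of −0.11, with 1 above and 7 below 0. Standard errors of the subunits had a higher median in mRNA (0.51), while those of assembly factors had a higher median in RNC (0.57 against 0.42). Ndufb2 stood at 110.1, 61 and 94.5 CPM in HFD and 71.2, 67.4 and 55.9 in control, and Ndufa5, of the matrix arm, at 194, 121 and 158 and 156, 134 and 94.4 CPM. Ndufb10, of the distal arm, stood at 66.8, 91.2 and 94.6 CPM in HFD and 119, 93.2 and 93.2 in control. All 3 pairs of groups overlapped. The RNC fit shares its estimate of spread with the HFD+LYC libraries. With only the 6 libraries compared, edgeR called 20 of all 11480 genes higher and 12 lower, and 888 had an unadjusted p under 0.05.

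The second question is what the addition of lycopene did. In mRNA no Nduf gene was called in HFD+LYC against HFD by edgeR (background 2.91%). An unadjusted p under 0.05 was found for 1 subunit and Ndufa4 (background 24.3%). DESeq2 called 1 Nduf gene, where it called 871 genes higher and 620 lower of all 12664. The subunit median was −0.083 with 15 of 36 above 0 (background 48.1%) and 2 of 36 with groups that did not overlap (background 31.9%). Assembly factors had a median of −0.40 with 2 of 8 above 0. Ndufa3, a small subunit at the base of the membrane arm, stood at 162, 64.8 and 289 CPM against 61.8, 71.1 and 53.4 in HFD, a log2 change of 1.47 ± 0.48 (adjusted p = 0.106, edgeR). The second HFD+LYC liver lay inside the HFD range. Ndufs7 did not overlap, at 149, 104 and 175 CPM in HFD+LYC, with a log2 change of 0.61 ± 0.36, and neither did Ndufaf4, at 82.8, 58.6 and 52.8 CPM, with 0.43 ± 0.26. Ndufs1, at 68.9, 79.8 and 67.3 CPM, lay below its HFD livers with −0.33 ± 0.26. None of these passed the test. In the same mRNA libraries the summed level of 7 sinusoidal endothelial markers was 398 to 590 CPM against 251 to 306 in HFD, that of 5 cholangiocyte markers 31.7 to 49.8 against 137 to 178, and that of 10 Kupffer cell markers 210 to 357 against 313 to 657. Summed stellate cell markers stood at 106 to 236 against 200.04 to 341 and hepatocyte markers at 23283 to 83551 against 48946 to 114103 CPM. Their part in these values was not tested.

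On the lower side were Ndufa4, Ndufab1 and Ndufa10. Ndufa4 stood at 58.6, 27.5 and 219 CPM in HFD+LYC against 271, 320.3 and 513 in HFD and 529.7, 110.4 and 365 in control, a log2 change of −1.85 ± 0.73 from HFD (adjusted p = 0.153, edgeR). With the replicate number as a block it was −2.32 ± 0.55 (adjusted p = 0.026, edgeR), the only Nduf gene called in that fit (background 11.5%). Ndufab1, the mitochondrial acyl carrier protein, stood at 16.8, 7.73 and 50.3 against 38.2, 56.1 and 103 CPM, −1.40 ± 0.71, and Ndufa10, a subunit with a nucleoside kinase fold, at 39.3, 18.2 and 88.7 against 67.3, 89.3 and 163 CPM, −1.13 ± 0.58. Only for Ndufa4 were all 3 HFD+LYC livers below all HFD livers. Other core subunits in HFD+LYC mRNA were Ndufv1 at 113, 115 and 111 and Ndufv2 at 97.8, 51.1 and 142 CPM. Ndufs3 stood at 101, 78.5 and 146 and Ndufs8 at 131, 62.8 and 177 CPM. The second liver was the lowest of the 3 for all of these but Ndufv1, whose 3 livers lay close together. The assembly factors Ndufaf1, Ndufaf2 and Ndufaf3 stood at 13.4, 7.6 and 22.5, at 5.01, 2.98 and 9.99 and at 8.1, 7.6 and 12.3 CPM. Ndufaf5 and Ndufaf6 stood at 3.39, 2.44 and 3.29 and at 8.1, 18 and 16 CPM, and Ndufaf7 and Ndufaf8 at 8.69, 7.19 and 11.1 and at 9.13, 6.92 and 11.6 CPM. Against control, which shares the HFD+LYC libraries, 0 of 46 were called (background 5.54%). An unadjusted p under 0.05 was found for 1 subunit, Ndufaf4 and Ndufa4 (background 23.9%). DESeq2 called 1 Nduf gene, where it called 927 genes higher and 701 lower of all 12664. Ndufa3 differed there by 1.33 ± 0.48, Ndufaf4 by 0.62 ± 0.26, Ndufaf6 by 0.82 ± 0.44, Ndufa4 by −1.72 ± 0.73, Ndufab1 by −1.42 ± 0.71 and Ndufa10 by −1.11 ± 0.58 on the log2 scale.

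Ribosome-bound RNA of complex I moved in both directions in HFD+LYC, as did that of all tested genes. Against HFD, 14 of 36 subunits passed the test, 5 higher and 9 lower, and 2 of 8 assembly factors passed, both lower. Over all 11660 genes tested 26.8% were called, 9.35% higher and 17.5% lower, against 38.9% of the subunits. The subunit median was −0.22 against −0.29 over all genes, with 15 of 36 above 0 (background 42%). The SD between subunits was 0.86 where it had been 0.17 for HFD against control. All tested genes, in ranges of transcript GC content, had medians from −1.12 to 0.53 here. For HFD against control these medians ran from −0.08 to 0.08. Whether subunits spread more than all genes was not tested. For 21 of 36 subunits the HFD+LYC and HFD livers did not overlap (background 41.3%). The number of Nduf genes called, 17 with Ndufa4, moved between 9 and 22 when 1 library was left out: 11 without control RNC 1 or 2, 9 without HFD RNC 2 or 3, and 22 without HFD+LYC RNC 1. It was 8 with only the 6 libraries compared. Calls over all genes were 1474 higher and 2769 lower of 11907 without HFD+LYC RNC 1. They were 647 and 1534 of 11823 without HFD RNC 2, and 592 and 1513 of 11880 without HFD RNC 3. With only the 6 libraries they were 685 and 1105 of 11096.

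**Figure D3:**
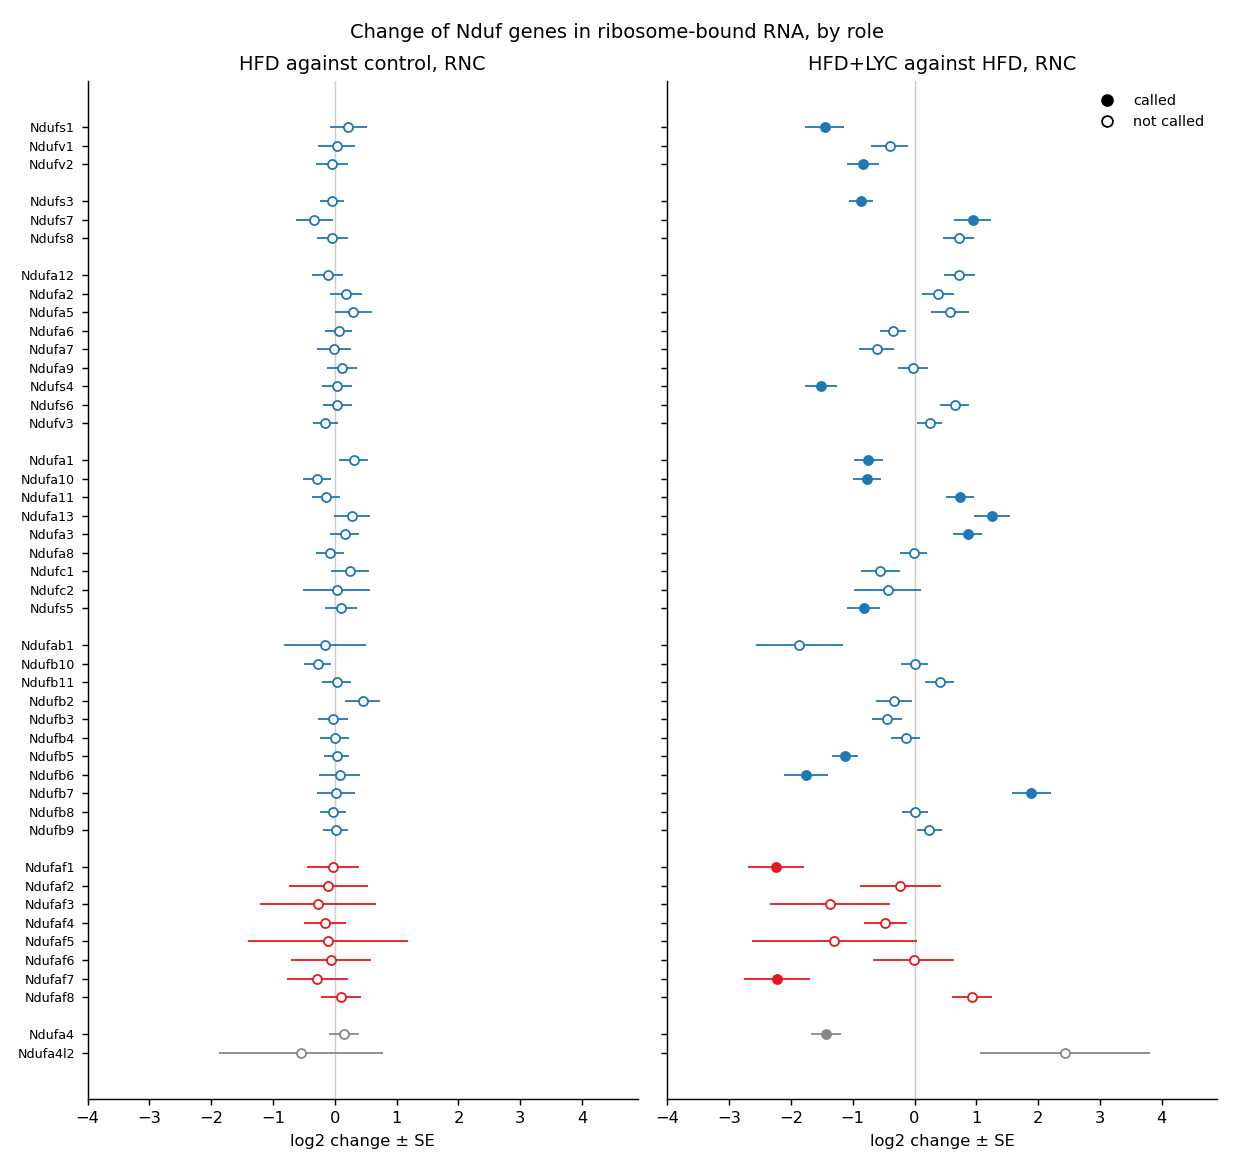
Log2 change of Nduf genes in RNC libraries with its standard error, for HFD compared with control and for HFD+LYC compared with HFD (n = 3 livers each), ordered by role; filled points have an adjusted p under 0.05 in edgeR. No point is filled for HFD against control, and 17 are filled for HFD+LYC against HFD, from −2.24 for Ndufaf1 to 1.89 for Ndufb7.

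In the NADH-oxidising core 2 of 3 subunits fell. Ndufs1 RNC levels were 38.5, 17.8 and 18.6 CPM in HFD+LYC, against 63.3, 76.9 and 64.5 under HFD and 52.5, 58.1 and 65.1 on chow. All 3 HFD+LYC livers lay below all others, and the level was 2.74-fold lower than in HFD (log2 change −1.45 ± 0.31, adjusted p = 0.00766, edgeR). Ndufv2 measured 66, 94.9 and 87.4 CPM in HFD+LYC, against 100.3, 170.5 and 170.2 under HFD and 145, 153 and 157 on chow, without overlap against HFD and a log2 change of −0.83 ± 0.26 (adjusted p = 0.0407, edgeR). Ndufv1 measured 40.5, 30.7 and 61.5 CPM in HFD+LYC, against 41.6, 73 and 61.1 under HFD and 56, 52.7 and 63.9 on chow. The third HFD+LYC liver lay inside the HFD range, and the log2 change of −0.40 ± 0.31 did not pass.

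The ubiquinone-reducing core moved both ways. Ndufs3 levels were 68.2, 57.5 and 70.5 CPM in HFD+LYC, against 109.98, 127 and 122 under HFD and 121, 129 and 119.9 on chow, which was 1.83-fold lower than in HFD without overlap (−0.87 ± 0.19, adjusted p = 0.00836, edgeR). Ndufs7 levels were 95.1, 191 and 134 CPM in HFD+LYC, against 94.9, 59.1 and 64.8 under HFD and 102, 85 and 87.5 on chow. The lowest HFD+LYC liver was just above the highest HFD liver, and the log2 change was 0.94 ± 0.30 (adjusted p = 0.0427, edgeR). Ndufs8 measured 138, 137 and 221 CPM in HFD+LYC, against 120.3, 87.9 and 94.7 under HFD and 109, 102 and 100.3 on chow, also without overlap, and did not pass, with a log2 change of 0.71 ± 0.25.

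Among 9 accessory subunits of the matrix arm only Ndufs4, whose loss in mice causes a Leigh-like encephalopathy, was called. It stood at 33.5, 21.1 and 27.2 CPM in HFD+LYC, against 59.5, 86.4 and 87.4 under HFD and 75.9, 79.5 and 73 on chow, 2.86-fold lower than in HFD (−1.51 ± 0.25, adjusted p = 0.00294, edgeR), and no HFD+LYC liver reached the lowest of the other 6. The median of the 9 was 0.24. The proximal membrane arm had 3 called higher and 3 lower of 9. Ndufa13, also known as GRIM-19, measured 476, 428 and 535 CPM in HFD+LYC, against 283, 147 and 177 under HFD and 194, 173 and 133 on chow, 2.37-fold higher than in HFD (1.25 ± 0.29, adjusted p = 0.0107, edgeR). Ndufa3 measured 174, 119 and 167 CPM in HFD+LYC, against 84.1, 74.2 and 95.4 under HFD and 74.5, 88.2 and 64.4 on chow (log2 change 0.86 ± 0.24, adjusted p = 0.0224). Ndufa11, a membrane-embedded subunit, measured 97.4, 118 and 133 CPM in HFD+LYC, against 83.8, 61.4 and 64.3 under HFD and 87.6, 72.9 and 70.9 on chow (log2 change 0.74 ± 0.23, adjusted p = 0.0369). In these 3 genes all HFD+LYC livers lay above all HFD livers. On the lower side Ndufs5 stood at 37.8, 74.9 and 65.2 CPM in HFD+LYC, against 107, 97.8 and 110.3 under HFD and 112, 94.6 and 87.6 on chow (log2 change −0.82 ± 0.27, adjusted p = 0.0473). Ndufa10 stood at 41.8, 41 and 47 CPM in HFD+LYC, against 57.4, 92.1 and 71.2 under HFD and 93.4, 82.4 and 94.9 on chow (log2 change −0.77 ± 0.23, adjusted p = 0.0322), and Ndufa1, a short single-span subunit, at 107, 82.8 and 95.5 CPM in HFD+LYC, against 176, 136 and 167 under HFD and 139, 149.8 and 99.9 on chow (log2 change −0.75 ± 0.24, adjusted p = 0.0408). Their HFD+LYC livers lay below all HFD livers, and Ndufa1 reached into the control range.

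The distal membrane arm held both the highest rise and the steepest called fall among subunits. Ndufb7, a twin-cysteine protein on the intermembrane face, measured 371, 430.2 and 470.0 CPM in HFD+LYC, against 168, 79.9 and 95.6 under HFD and 141, 107 and 92 on chow. Its HFD+LYC livers were at least 371 CPM and no other liver exceeded 168, a 3.7-fold difference from HFD (1.89 ± 0.32, adjusted p = 0.00338, edgeR). Ndufb6 and Ndufb5, membrane-spanning subunits, went the other way. Ndufb6 measured 35.8, 26.8 and 13.6 CPM in HFD+LYC, against 64.9, 88.9 and 103 under HFD and 87.3, 87.7 and 68.8 on chow, 3.38-fold lower (−1.76 ± 0.35, adjusted p = 0.00566, edgeR). Ndufb5 measured 61.2, 51.2 and 46.2 CPM in HFD+LYC, against 101, 123 and 122 under HFD and 108, 116 and 114 on chow, 2.18-fold lower (−1.13 ± 0.21, adjusted p = 0.00429, edgeR). Neither overlapped with HFD. Ndufab1 had the lowest fitted value of the subunits, −1.86 ± 0.70, and was not called: its levels were 44.7, 2.87 and 16.5 CPM in HFD+LYC, against 51.3, 93.4 and 87 under HFD and 92.5, 83.2 and 84 on chow, and the HFD+LYC livers spread from 2.87 to 44.7 CPM. The other subunits that were not called, in all parts of the enzyme, ran from −0.62 ± 0.28 for Ndufa7 to 0.72 ± 0.25 for Ndufa12. Over all annotated exons, Ndufb5 shares 616 bases (12.3%) with Mrpl47, Ndufb6 257 (39.0%) with Smim27 and Ndufa13 375 (30.0%) with Tssk6, each on the opposite strand. How many of these bases lie in the transcripts counted was not tested. The strand setting of the counting is not given in the sources used, so reads from shared bases cannot be assigned to 1 gene.

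Assembly factors were lower on the whole in HFD+LYC RNC, with a median of −0.89 and 7 of 8 below 0, but only 2 passed. Over all tested genes the median was −0.29 and 42% were above 0. With the GC and length offsets described below, the assembly factor median was −0.00095 with 4 of 8 above 0, against −0.22 over all genes. Ndufaf1 measured 3.1, 9.2 and 2.81 CPM in HFD+LYC, against 25.4, 25.4 and 20.2 under HFD and 26.8, 22.7 and 22.9 on chow, 4.71-fold lower than in HFD (−2.24 ± 0.45, adjusted p = 0.00598, edgeR). Ndufaf7 measured 1.03, 3.07 and 1.61 CPM in HFD+LYC, against 7.14, 11.3 and 8.27 under HFD and 9.87, 12.9 and 9.93 on chow, 4.68-fold lower (−2.23 ± 0.53, adjusted p = 0.0119, edgeR). For both, every HFD+LYC liver lay below the other 6. These levels rest on few reads in HFD+LYC, 15 to 48 for Ndufaf1 and 5 to 16 for Ndufaf7. The HFD libraries held 160 to 401 and 45 to 179 reads. Ndufaf8 was the exception in direction, at 24.2, 46.4 and 21.7 CPM in HFD+LYC, against 16.5, 16.1 and 15.7 under HFD and 13.5, 16.1 and 15.6 on chow, without overlap and not called (0.93 ± 0.33, adjusted p = 0.0618, edgeR). The other 5 were not called. Ndufaf2 stood at 22.1, 2.3 and 10.4 CPM in HFD+LYC, against 7.46, 17.5 and 15.7 under HFD and 13.8, 14.6 and 15.4 on chow, Ndufaf3 at 0, 2.68 and 7.36 CPM in HFD+LYC, against 5.87, 11.6 and 8.89 under HFD and 7.49, 13.1 and 11.3 on chow. Ndufaf4 stood at 30.4, 17.2 and 12.4 CPM in HFD+LYC, against 30.9, 26.7 and 25.7 under HFD and 24.1, 36.6 and 32.3 on chow. Ndufaf5 was at 0, 0 and 5.35 CPM in HFD+LYC, against 3.17, 4.62 and 5.81 under HFD and 5.2, 4.92 and 4.65 on chow, and Ndufaf6 at 17.2, 12.5 and 1.74 CPM in HFD+LYC, against 7.62, 11.9 and 11.9 under HFD and 10.1, 10.9 and 11.8 on chow. Ndufaf3 had no read in 1 and Ndufaf5 none in 2 HFD+LYC libraries. Outside the complex, Ndufa4 measured 257, 266 and 208 CPM in HFD+LYC, against 505, 688 and 778 under HFD and 582, 585 and 608 on chow, 2.7-fold lower without overlap (−1.43 ± 0.24, adjusted p = 0.00329, edgeR). Its paralogue Ndufa4l2 stood at 14.5, 7.86 and 0 CPM in HFD+LYC, against 2.06, 1.2 and 0.889 under HFD and 3.7, 1.19 and 1.09 on chow and was not called (2.43 ± 1.38, adjusted p = 0.24, edgeR).

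These calls differed in how far they depended on single libraries. Ndufb7, Ndufb6, Ndufb5, Ndufs1, Ndufs3, Ndufs4, Ndufaf1 and Ndufa4 were called in each of 9 fits that left out 1 RNC library. Ndufa13 was lost without HFD RNC 3 (adjusted p = 0.0588), Ndufaf7 without HFD RNC 2 (0.0587) and Ndufa3 without any 1 of the HFD RNC libraries (up to 0.0961), by edgeR. Ndufa10 was kept in 4 of 9 such fits, Ndufa11 in 3, Ndufa1, Ndufs7 and Ndufv2 in 2 and Ndufs5 in 1, with adjusted p up to 0.127, 0.145, 0.123, 0.157, 0.148 and 0.133 in that order. Each of these 6 was lost without HFD RNC 2 and without HFD RNC 3.

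The direction of change went with the base composition of the transcripts. The 5 subunits called higher had a transcript GC content of 51.3% to 60.7% (median 59.7%) and the 9 called lower 42.0% to 53.8% (median 48.0%). Among 11 subunits at 55% GC or more, the median log2 change was 0.65, with 4 higher and 0 lower. Among 14 between 50% and 55% it was −0.22, among 8 between 45% and 50% −0.94, and among 3 below 45% −0.83. All tested genes in the same ranges had medians of 0.53, −0.04, −0.63 and −1.12. Across genes, the Spearman correlation of change with GC was 0.66 over the 46 Nduf genes and 0.41 over 11568 genes; all points share the same 6 libraries and genes are not independent replicates. In mRNA the same comparison gave correlations of 0.43 over the Nduf genes, 0.47 over the subunits and 0.41 over 12530 genes. For HFD against control in RNC the 4 subunit medians, from the highest to the lowest GC range, were −0.02, 0.05, 0.05 and −0.03. Assembly factor transcripts had a lower GC content (median 47.3%) than subunit transcripts (52.4%) and were longer (median 1266.5 against 710 bases).

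To show this difference, the first 120 coding bases are printed for Ndufb7 and Ndufa13, which rose, and for Ndufs1 and Ndufaf1, which fell, with G and C in capitals (positions 1 to 120 of the coding sequence, GENCODE vM21 transcripts, GRCm38).
Ndufb7: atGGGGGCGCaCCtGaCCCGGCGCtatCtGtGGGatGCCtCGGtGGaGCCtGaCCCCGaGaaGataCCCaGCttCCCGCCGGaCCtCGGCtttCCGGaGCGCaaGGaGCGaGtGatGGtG
Ndufa13: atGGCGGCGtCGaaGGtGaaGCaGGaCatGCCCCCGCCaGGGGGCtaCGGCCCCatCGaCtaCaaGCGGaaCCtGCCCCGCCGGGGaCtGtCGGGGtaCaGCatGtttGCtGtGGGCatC
Ndufs1: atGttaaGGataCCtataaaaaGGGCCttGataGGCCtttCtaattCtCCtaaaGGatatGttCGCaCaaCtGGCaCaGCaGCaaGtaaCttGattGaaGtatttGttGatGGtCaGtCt
Ndufaf1: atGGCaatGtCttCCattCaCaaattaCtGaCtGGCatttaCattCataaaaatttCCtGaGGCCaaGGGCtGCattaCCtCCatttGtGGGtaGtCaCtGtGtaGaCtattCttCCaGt
G and C made up 66.7% of the stretch of Ndufb7 and of Ndufa13, 39.2% of that of Ndufs1 and 40.8% of that of Ndufaf1. The start of the coding sequence alone did not sort the genes, since Ndufb6 and Ndufs4 had 65.8% and 56.7% there and were both lower. Over whole transcripts Ndufb7 held 59.7% and Ndufa13 60.4%, against 48.4% in Ndufb6, 43.1% in Ndufs4, 45.1% in Ndufs1 and 46.1% in Ndufaf1.

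A fit with offsets for transcript GC content and length, chosen after seeing the data, changed which subunits were called. It gave 9 subunits higher and 2 lower (background 21.6%), where 940 of all 11568 genes were higher and 1562 lower. The subunit median was 0.32 against −0.22 over all genes, where the fit without offsets had given −0.22 and −0.29. The 9 were Ndufa2, Ndufa3, Ndufa5, Ndufa12, Ndufb3, Ndufb7, Ndufb8, Ndufb11 and Ndufs6, of which Ndufb7 (1.69) and Ndufa3 (2.01) were called higher in both fits. Ndufs3 (−0.79) was called lower in both, and Ndufv1 (−0.996) was called lower with the offsets alone. Ndufs1 (−0.58), Ndufs4 (−0.20), Ndufb6 (−0.62), Ndufb5 (−0.17), Ndufa10 (−0.53), Ndufs5 (−0.30), Ndufs7 (0.44) and Ndufa13 (0.47) kept their sign and were no longer called. Ndufa1 (0.73), Ndufv2 (0.54), Ndufa11 (−0.17) and Ndufa4 (0.42) changed sign. Among assembly factors, Ndufaf1 (−1.26, adjusted p = 0.0824, edgeR) and Ndufaf7 (−1.51, adjusted p = 0.0541, edgeR) stayed lower without passing, and Ndufaf8 (1.17) passed as higher. The assembly factor median was −0.00095 with 4 of 8 above 0, where the fit without offsets had given −0.89.

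**Figure D4:**
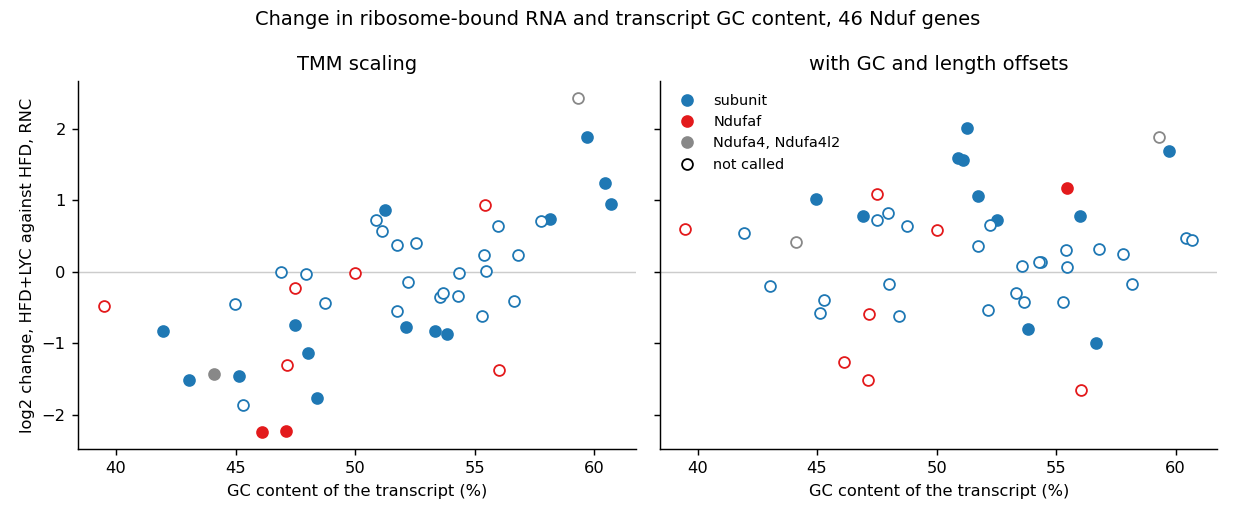
Log2 change of each Nduf gene in RNC, HFD+LYC against HFD, against transcript GC content in percent, from the fit without offsets and the fit with transcript GC and length offsets. GC content is that of the matched GENCODE transcript closest in length to the listed longest transcript. Colours give the class and filled points an adjusted p under 0.05. Without offsets all 9 subunits called lower hold at most 53.8% GC and all 5 called higher at least 51.3%; with offsets 9 subunits are called higher and 2 lower.

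Against control, HFD+LYC gave values from the same HFD+LYC libraries. In RNC 3 subunits were called higher and 7 lower, with 1 assembly factor higher and 2 lower (background 26.4%, 9.23% higher and 17.1% lower). Ndufb7 (1.90 ± 0.32), Ndufa13 (1.53 ± 0.29) and Ndufa3 (1.02 ± 0.24) were the higher subunits. The lower ones were Ndufb6 (−1.68 ± 0.35), Ndufs4 (−1.48 ± 0.25), Ndufs1 (−1.23 ± 0.31), Ndufb5 (−1.10 ± 0.21), Ndufa10 (−1.06 ± 0.23), Ndufs3 (−0.91 ± 0.19) and Ndufv2 (−0.87 ± 0.26). Ndufaf8 was 1.03 ± 0.33 (kept in 2 of 9 fits that left out 1 library, adjusted p up to 0.146), Ndufaf1 −2.27 ± 0.45, Ndufaf7 −2.51 ± 0.54 and Ndufa4 −1.28 ± 0.24. Ndufa3 was lost without control RNC 3 (adjusted p = 0.0581), Ndufs1 without control RNC 2 or 3 (up to 0.0618) and Ndufv2 in 5 of 9 such fits (up to 0.093), by edgeR. The 14 Nduf genes called became 23 without HFD+LYC RNC 1, where all genes gave 1473 higher and 2779 lower of 11907. With GC and length offsets 12 subunits were higher and 2 lower, with 1 assembly factor each way (background 22.4%). Over all 11568 genes of that fit 1013 were higher and 1579 lower.

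In control and HFD livers the ribosome-bound share of complex I transcripts was on the high side. The fitted control RNC to mRNA log2 ratio was above 0 for 36 of 36 subunits and 8 of 8 assembly factors, with medians of 1.10 and 1.08. Over 12872 genes 47.6% were above 0, with a median of −0.067. Fitted HFD ratios gave the same counts with medians of 1.17 and 0.95 (background 47.7% above 0). By single liver, 7 of 8 assembly factors were above 0 in control liver 1 and 34 of 36 subunits in HFD liver 3. None of the 46 was called by edgeR in either diet (background 2.13% in control and 0.101% in HFD). Of all 12872 genes, edgeR called 2 higher and 272 lower in control, and 0 higher and 13 lower in HFD. An unadjusted p under 0.05 was found for 30 subunits and 4 assembly factors in control (background 27.3%). In HFD it was found for 27 and 2 (background 20.8%). DESeq2 called 8 of the 46 in control, where it called 492 genes higher and 1689 lower. It called 9 in HFD, where all genes gave 262 higher and 882 lower. The control count of 0 became 1, 14 and 2 when HFD+LYC liver 1, 2 or 3 was left out of the shared fit. Over all genes these refits called 76, 435 and 129 higher and 723, 1092 and 760 lower in control. The count in HFD became 6 without HFD+LYC liver 2, where 48 of all genes were higher and 193 lower.

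Ndufb11, a single-span subunit of the distal arm, had the smallest p in both diets, with log2 ratios of 0.90, 2.29 and 1.04 in the 3 control livers and 1.47, 1.31 and 1.33 in HFD, and a fitted control value of 1.32 ± 0.35 (adjusted p = 0.0533, edgeR). Over all its annotated exons, Ndufb11 shares 117 bases (12.9%) with Rbm10 on the opposite strand. Ndufv2 had control ratios of 0.81, 2.68 and 1.28 and Ndufb5 of 0.73, 2.77 and 1.25. Ndufs1 was lowest of the subunits, at 0.44, 0.58 and 0.72. The second control liver was the highest for Ndufb11, Ndufv2 and Ndufb5, and its mRNA values were the lowest of the 3 for each. Ndufa4l2 was the exception in sign, at 0.40, −0.85 and −0.998 in control and −0.27, 0.037 and −0.39 in HFD. By liver, subunit median ratios were 0.69, 2.15 and 0.88 on chow, then 1.39, 1.05 and 0.99 under HFD, then 1.02, 2.08 and 0.21 under HFD+LYC. Assembly factor medians were 0.55, 1.83 and 0.95, then 1.00, 1.00 and 0.52, then −0.83, 0.02 and −0.51. Above 0 in the HFD+LYC livers were 33, 33 and 22 of 36 subunits. The counts there were 3, 4 and 4 of 8 for assembly factors, and the shares 32.9%, 37.4% and 36.3% for all genes. The subunit median stood above the assembly factor median in 8 of 9 livers, and the gap was widest in the first and second HFD+LYC livers.

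**Figure D5:**
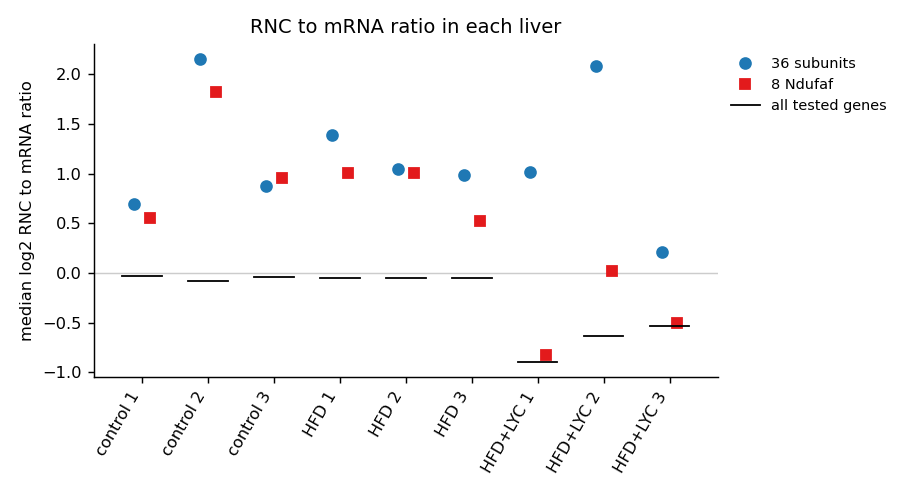
Median log2 RNC to mRNA ratio in each of the 9 livers, for the 36 subunits, the 8 Ndufaf genes and all tested genes. Subunit medians lie between 0.21 and 2.15; assembly factor medians lie between −0.83 and 0.02 in HFD+LYC livers and between 0.52 and 1.83 in the others.

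Transcript length moved with this ratio. In control livers the median log2 ratio over all genes was 0.94 below 600 bases, 0.84 from 600 to 1000, 0.38 from 1000 to 2000 and −0.15 from 2000 to 4000 bases. The subunits in these ranges, 13, 12, 8 and 3 in number, had medians of 1.12, 1.26, 0.96 and 0.91. With offsets for GC and length the control medians became 0.27 for subunits and 0.29 for assembly factors, against −0.18 over all genes. For other mitochondrial genes in control the median was 1.23 for complexes III, IV and ATP synthase and 0.96 for mitochondrial ribosomal proteins.

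In HFD+LYC livers 14 of 36 subunits were called higher in RNC than in mRNA and 0 lower, while 2 assembly factors were higher and 2 lower, and Ndufa4 was higher (background 43.4%, 12.8% higher and 30.6% lower). Ndufb7 had ratios of 2.15, 3.03 and 1.90 (2.27 ± 0.39), Ndufb11 of 2.67, 2.11 and 1.53 (2.06 ± 0.35) and Ndufa13 of 2.16, 3.31 and 1.62 (2.14 ± 0.45). Ndufb9, which shares 201 exonic bases with Gm49356, had 2.54, 3.33 and 1.07, Ndufs6, which binds zinc, 1.40, 3.54 and 1.11 and Ndufa12 2.08, 2.05 and 0.98. All 18 of these ratios were above 0. Ndufa6, Ndufa9 and Ndufa11 had 1.64, 2.96 and 0.88, then 1.36, 2.02 and 0.91, then 1.12, 2.63 and 0.95, and the core subunit Ndufs8 had 0.97, 2.01 and 1.22. For Ndufa2, Ndufa5, Ndufb3 and Ndufc2 the levels of the 2 kinds overlapped, with ratios of 0.80, 2.65 and 0.56, then 0.68, 2.84 and 0.50, then 1.61, 3.40 and −0.0030, then 3.56, 2.12 and 0.54. Ndufaf8 had 2.23, 3.51 and 1.75 (2.62 ± 0.46, adjusted p = 0.000297, edgeR) and Ndufaf2 2.89, 0.43 and 0.92 (1.85 ± 0.70, adjusted p = 0.0413, or 0.0742 with a block for the liver). On the lower side were Ndufaf7 at −1.84, −0.30 and −1.68 (−1.35 ± 0.46, adjusted p = 0.0244, or 0.0607 with the liver block) and Ndufaf4 at −0.53, −0.86 and −1.17 (−0.80 ± 0.31, adjusted p = 0.0438), by edgeR. With offsets for transcript GC and length the 14 subunits were called higher again, with Ndufb2, Ndufb8 and Ndufv3 added (background 43.9%). Over all 12730 genes of that fit 2071 were higher and 3518 lower. Ndufa4 (1.98) and Ndufaf8 (2.07) stayed called higher and Ndufaf7 (−1.34) lower, and Ndufaf1 (−0.98) was called lower. Ndufaf2 (1.29, adjusted p = 0.0643, edgeR) and Ndufaf4 (−0.21, adjusted p = 0.624, edgeR) were no longer called, and Ndufaf4 was also not called without a filter or with upper-quartile scaling, nor was Ndufaf7. For Ndufaf2 and Ndufaf4 the levels in the 2 kinds overlapped. Over all its annotated exons, Ndufaf2 shares 1955 bases (65.6%) with B230220B15Rik on the opposite strand, while its listed transcript has 680 bases. The 19 genes called became 29 without HFD+LYC liver 3, where all genes gave 1808 higher and 4317 lower of 13181. With 1 liver left out, Ndufa9 was kept in 5 of 9 fits, Ndufa2 in 4, Ndufa5, Ndufb3 and Ndufaf2 in 3 and Ndufaf4 in 1, with adjusted p up to 0.118, 0.214, 0.27, 0.213, 0.382 and 0.117 in that order. Ndufaf7 was lost without HFD+LYC liver 1 or 3 (up to 0.115), Ndufa4 and Ndufc2 without liver 1 and Ndufa6 without liver 2 of that diet, and the other 9 were kept in all 9 fits.

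Whether the ratio itself differed between diets was tested with the interaction of diet and library kind, in a fit without a term for the liver. Between HFD and control 0 of 46 were called by edgeR (background 0%), 0 had an unadjusted p under 0.05 (background 0.155%) and DESeq2 called 0, with medians of 0.036 for subunits and −0.11 for assembly factors. Among the members nearest to a call were Ndufa2 (0.35 ± 0.58), Ndufa3 (0.32 ± 0.58) and Ndufa5 (0.31 ± 0.60) on the higher side, and Ndufaf4 (−0.34 ± 0.43) and Ndufaf6 (−0.52 ± 0.83) on the lower. Their standard errors exceeded their changes. Between HFD+LYC and HFD 2 of 46 were called, both lower (background 16.4%, 3.42% higher and 13% lower).

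Ndufs1 had log2 ratios of 0.063, −1.25 and −0.94 in HFD+LYC, against 0.59, 0.84 and 0.25 under HFD and 0.44, 0.58 and 0.72 on chow. Each HFD+LYC liver lay below each HFD liver, a difference of −1.19 ± 0.40 (adjusted p = 0.0479, edgeR, or 0.0648 with the liver block), kept in 1 of 9 fits that left out 1 liver (up to 0.191). Ndufaf7 had ratios of −1.84, −0.30 and −1.68 in HFD+LYC, against 0.71, 0.91 and 0.38 under HFD and 0.20, 1.48 and 0.35 on chow. Again no HFD+LYC liver reached an HFD liver, and the difference was −2.06 ± 0.62 (adjusted p = 0.0301, edgeR, or 0.0884 with the liver block), kept in 3 of 9 such fits (up to 0.131). On the higher side Ndufb7 (1.47 ± 0.53, adjusted p = 0.0666, edgeR), Ndufaf8 (1.41 ± 0.61, 0.132) and Ndufa13 (0.97 ± 0.61, 0.313) did not pass, and neither did Ndufaf1 on the lower side (−1.67 ± 0.65, 0.089). Medians were −0.23 for subunits, −0.91 for assembly factors and −0.41 for all genes. With offsets for GC and length (background 16.9%) Ndufs3 was the only subunit called lower, 6 subunits and Ndufaf8 were higher, and neither Ndufs1 nor Ndufaf7 was called. Over all 12730 genes of that fit 793 were higher and 1357 lower.

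The assembly factors with other names and the neighbouring complexes were counted from lists chosen with earlier results known. Of 10 assembly factors with other names, 1 was higher and 1 lower in HFD+LYC RNC against HFD, where 26.8% of all tested genes were called, 9.35% higher and 17.5% lower: Ecsit, a partner of Ndufaf1 (1.16 ± 0.37), and Lyrm2, a factor of the NADH module (−3.21 ± 0.89). The ratio of Foxred1, an oxidoreductase-like factor, was lower (−1.78 ± 0.58). Of 8 complex II genes 3 were lower, with Sdha, the flavoprotein subunit, at −1.19 ± 0.35 and Sdhaf4 without a read in the 3 HFD+LYC RNC libraries. Among 38 tested genes of complexes III, IV and ATP synthase 3 were higher and 11 lower with a median of −0.33, against −0.22 for complex I subunits; that difference was not tested. Of 11 regulators of mitochondrial biogenesis 2 were higher in HFD+LYC than in HFD in both kinds of library (background 2.91% called in mRNA). They were the nuclear receptor Esrra (1.91 ± 0.37 in mRNA and 1.17 ± 0.31 in RNC) and the coactivator Ppargc1b (2.12 ± 0.51 and 3.12 ± 0.73). None of these lists held a called gene for HFD against control.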

How the data were processed

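Per the file headers, the 18 deposited tables list, for 24539 genes with merged splice variants, the longest transcript length, a read count and an RPKM value. The deposited counts are whole numbers and were used for all tests; the RPKM values that the authors computed were not tested. The submitters' processing notes name bcl2fastq and the build mm10, and the series text states mapping to RefSeq RNA. Sources used here do not give the aligner or the strand setting. Of the RPKM library totals, 0.765% to 29.9% are reads that the tables do not list.

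Counts were fitted with edgeR 4.0.16 (R 4.3.3): filterByExpr by group (minimum count 10, minimum total 15), TMM scaling and a robust quasi-likelihood model. The 9 mRNA libraries (12664 genes), the 9 RNC libraries (11660) and all 18 (12872) were fitted apart. Called means an adjusted p (Benjamini-Hochberg, two-sided, over all genes of the fit) under 0.05. After ± stand the standard error of a log2 change and the SD of a level. CPM are TMM-scaled, and ratios by liver use log2(CPM + 0.5). Scripts were tested on simulated data. Alternatives were DESeq2 1.42.0, other scaling and filters, blocks, omission of libraries and, added later, spline offsets (4 degrees of freedom) for transcript GC and length.

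Values by library are given for nuclear core subunits, the Ndufaf genes, called genes and those with the 3 smallest p in each direction; 1 gene counted among the members is not reported here by itself. Members and lists were chosen with earlier results of these data known. The Rps6k kinases were left out of the ribosomal proteins. The mRNA and RNC libraries of a liver share an animal code in 9 of 9 cases, so a block for the liver pairs them. The main fit of all 18 libraries had no such block. Their residuals correlated at −0.048 to 0.60 across genes. In mRNA, residuals of same-numbered HFD and HFD+LYC livers correlated at 0.15 to 0.51, so the fit with the replicate number as a block is given there too where it changed a call. Sequences come from RefSeq promoters and GENCODE vM21 transcripts, and near copies were sought with BLAST+ 2.17.0. GC content was taken from the matched GENCODE transcript closest to the listed longest length, and its own length can differ. Length ranges, offsets and CPM per kb use the listed length.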

Additional observations from a re-analysis of the deposited data

Results flagged for a closer look

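The diet effect of HFD+LYC against HFD differed between mRNA and RNC libraries for 2 of 46 Nduf genes, by the interaction test of edgeR, against 16.4% of all tested genes (13% lower). For Ndufaf7, a protein arginine methyltransferase, the log2 RNC to mRNA ratio differed by −2.06 ± 0.62 (adjusted p = 0.0301), and for the core subunit Ndufs1 by −1.19 ± 0.40 (adjusted p = 0.0479). In both genes 3 of 3 HFD+LYC livers lay below 3 of 3 HFD livers. Ndufaf7 had only 5 to 16 reads in the HFD+LYC RNC libraries. Neither call held with a block for the liver (adjusted p = 0.0884 and 0.0648). With offsets for transcript GC and length, Ndufaf7 stood at −1.54 (adjusted p = 0.0632) and Ndufs1 at −0.47 (adjusted p = 0.483), and neither was called.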

How the results depend on the processing

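Other filters, scalings, tools, blocks and omitted libraries left 423 counts and medians of Nduf genes within their limits and moved 46. With GC and length offsets, chosen after seeing the data, 4 genes called in RNC for HFD+LYC against HFD changed sign: Ndufa1 to 0.73, Ndufv2 to 0.54, Ndufa4 to 0.42 and Ndufa11 to −0.17; against control Ndufa4 (0.47) and Ndufv2 (0.48) did. In mRNA the 0 calls for HFD+LYC, against either diet, became 1 with the replicate block, 1 with DESeq2 and 2 with the offsets, and 0 to 1 with a library left out (1 without HFD+LYC mRNA 3).

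In RNC, HFD+LYC against HFD, the subunit median was −0.13 with upper-quartile scaling and 0.32 with the offsets, the assembly factor median −1.2 with the replicate block and −0.00095 with the offsets, and 8 genes were called in the 6 libraries compared. Leaving out 1 library gave 9 to 22 calls, subunit medians of −0.24 to −0.060 and assembly factor medians of −1.08 to −0.57. Against control these medians were −0.10 (upper quartile) and 0.38 (offsets), then −1.44 (block) and −0.19 (offsets); leaving out 1 library gave 10 to 23 calls, −0.28 to −0.077 and −1.18 to −0.70. The HFD against control subunit median ran from −0.054 to 0.081 in RNC.

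For the ratio, HFD+LYC against HFD gave 0 calls without a filter, 1 with upper-quartile scaling and 1 with the liver block. It gave 4 with DESeq2, 9 with the offsets and 0 to 3 with a liver left out. Over all genes DESeq2 called 853 higher and 1927 lower, and the offsets gave 793 and 1357. The assembly factor median of this ratio was −1.36 with the liver block and −0.33 with the offsets. HFD against control gave −0.55 to 0.21 for that median with a liver left out. RNC against mRNA gave 8 calls in control and 9 in HFD with DESeq2, 0 to 14 and 0 to 6 with a liver left out, and subunit and assembly factor medians of 0.27 and 0.29, then 0.23 and 0.17, with the offsets. In HFD+LYC a liver left out gave 13 to 29 calls and subunit medians of 0.55 to 1.64, and the assembly factor median was 0.24 with factors of other names added and −0.79 with the liver block. Calls over all genes moved in these refits too. The cause of these shifts was not tested. Across diets, residuals of same-numbered libraries correlated above 0.1 in 7 of 9 mRNA pairs (−0.47 to 0.51; all 6 pairs of numbers 2 and 3 lay at 0.30 to 0.51) and in 2 of 9 RNC pairs (−0.086 to 0.37). In mRNA, HFD+LYC against HFD, the replicate block raised the calls over all genes from 368 to 1457; in RNC it left 12 of 17 Nduf calls. With no read for Ndufaf3 in 1 and Ndufaf5 in 2 HFD+LYC RNC libraries, depth gives only an upper limit there.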
